A study of Mus musculus with 20 samples.

Results

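Krueppel-like factors are transcription factors whose C-terminal zinc fingers bind GC-rich and CACCC-type DNA. The set described here holds 10 members, Klf2, Klf3, Klf4, Klf5, Klf6, Klf7, Klf9, Klf10, Klf13 and Klf15, chosen as the array probes whose transcript accession maps to one of these symbols. RefSeq genes of GRCm38.p6 place Klf7 on chromosome 1, Klf4 on 4, Klf3 on 5, Klf15 on 6, Klf13 on 7, Klf2 on 8, Klf6 on 13, Klf5 on 14, Klf10 on 15 and Klf9 on 19. Each had 1 probe with 1 spot, and 9 of the 10 passed the filter on dim probes, among 24284 genes and unnamed transcripts tested. Mouse embryonic fibroblasts (MEFs) of BALB/c background were grown in medium with serum and uridine and treated with 150 µM actinonin for 6, 24, 48 or 72 h, or with the ethanol carrier alone (3 µl per ml), which the labels place at 0 h. Actinonin is an antibiotic that inhibits peptide deformylase, an enzyme that in mammalian cells works in mitochondria. Each of the 5 groups held 4 samples described as independent, each pooling 4 plates, with 2 samples in Cy3 and 2 in Cy5. All groups share the strain, the medium and the uridine. The control has a single time, so time in culture and time with actinonin cannot be told apart.

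In fibroblasts the family takes part in growth arrest, serum and growth factor responses and the control of metabolism. Its members differ mainly outside the zinc fingers. One group (Klf3, Klf8, Klf12) recruits the corepressor CtBP, another (Klf2, Klf4, Klf5, Klf6, Klf7) acts mostly as activators, and the last (Klf9, Klf10, Klf11, Klf13, Klf14, Klf16) binds the corepressor Sin3. Many members are induced quickly and have short-lived mRNA and protein.

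The 250 bases before the RefSeq start site are printed for Klf2, Klf4 and Klf9 because these are the members that rose most. RefSeq promoter sequences (build GRCm38.p6) were matched for 8 of the 10 members. Klf5 and Klf10 are named only. Capitals mark matches to the motifs searched, other than GC boxes.
Klf2, chr8:72318812-72319061, plus strand: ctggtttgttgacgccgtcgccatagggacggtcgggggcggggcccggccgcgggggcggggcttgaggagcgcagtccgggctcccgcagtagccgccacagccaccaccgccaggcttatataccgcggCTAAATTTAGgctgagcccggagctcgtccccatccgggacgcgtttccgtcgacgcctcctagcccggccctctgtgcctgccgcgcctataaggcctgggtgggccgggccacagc
Klf4, chr4:55532476-55532725, minus strand: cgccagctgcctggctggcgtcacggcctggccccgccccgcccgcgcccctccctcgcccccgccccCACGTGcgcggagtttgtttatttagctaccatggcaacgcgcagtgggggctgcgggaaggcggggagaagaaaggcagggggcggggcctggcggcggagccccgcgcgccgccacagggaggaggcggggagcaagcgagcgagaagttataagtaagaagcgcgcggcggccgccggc
Klf9, chr19:23140976-23141225, plus strand: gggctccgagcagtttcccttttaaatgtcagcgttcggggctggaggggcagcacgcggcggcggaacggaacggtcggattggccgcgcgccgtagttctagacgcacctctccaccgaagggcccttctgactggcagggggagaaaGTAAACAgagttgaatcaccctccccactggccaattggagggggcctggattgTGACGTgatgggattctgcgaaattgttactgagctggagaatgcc
In Klf2 the capitals mark a match to the core of the MEF2 motif (CTA and TAG with any 4 bases between), 118 to 109 bases before the start, which 3.2% of 32851 mouse promoters of the same length hold on either strand. In Klf4 they mark an E-box (CACGTG), 182 to 177 bases before the start, held by 6.02% of promoters. In Klf9 they mark a FOXO site (GTAAACA), 100 to 94 bases before the start and held by 3.17%, and a short cAMP response element (CRE; TGACGT), 46 to 41 bases before the start and held by 6.47%. The GC box (GGGCGG), the kind of site that Sp and Krueppel-like factors themselves bind, was matched 4 times in the Klf4 window, 2 times in Klf2 and 0 times in Klf9, and 32.7% of promoters hold it. E-boxes were also matched in Klf6 and Klf15 and a CRE in Klf13. No member window held the C/EBP-ATF element (TGATGNAAN) or the CACCC box (CCACACCC). Both strands were searched for all 7 motifs. The palindromic E-box and MEF2 core read the same on both strands, and the Klf4 E-box overlaps no GC box. A match is a description of letters and not a measured site.

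The arrays were 10 two-colour arrays on 2 slides. Spots well above background made up 50.8% to 58.7% of each sample's spots on 9 arrays and 66.4% and 70.5% in the 2 samples of the tenth, which were a control and a 48 h sample. Slide 1 held 2 control and 2 6 h samples, and every 24, 48 and 72 h sample was on slide 2, so slide was a term of the fit. The 24 h and 72 h samples shared arrays only with each other, and control, 6 h and 48 h samples lay on the other arrays. Differences of 24 h or 72 h from control, 6 h or 48 h thus lie wholly between arrays. They cannot be told apart from a difference between these sets of arrays. Of 10 fibroblast markers examined, 9 (among them Col1a1, Pdgfra, Thy1 and Vim) were well above background in all 20 samples and Lum in 7, and their summed level lay between 18.9 and 19.9 on the log2 scale in every sample. Of these markers 2, 8, 9 and 7 fell at 6, 24, 48 and 72 h, against 11.1%, 19.1%, 20.3% and 22.6% of all genes tested. Pdgfra fell by 0.50 at 6 h and Col1a1 fell by 1.46 at 48 h, and Fn1 rose by 0.37 at 72 h. Of the markers of other cell types, 4 of 8 endothelial, 5 of 7 macrophage and leukocyte, 4 of 8 epithelial, 3 of 5 adipocyte and 3 of 6 muscle genes were bright enough to test. In these lists Pecam1, Kdr, Csf1r, Cd14, Itgam, Krt5, Krt14, Krt10, Lpl and Tnnt2 were well above background in 20 of 20 samples, and Cdh5, Ptprc, Krt8, Adipoq, Plin1, Actc1 and Myh3 in 0 of 20, all named here after their values were seen. The summed endothelial level ran from 11.9 to 12.8 in controls and from 12.3 to 12.7 over the 24 to 72 h samples, and that of macrophage genes from 15.0 to 15.5 and from 15.0 to 15.3, although Cd14 changed by -0.71, -0.96 and -1.35 at 24, 48 and 72 h. The epithelial sum ran from 10.2 to 10.3 in controls and from 9.69 to 9.93 at 72 h, and the adipocyte sum from 10.72 to 10.97 in controls, from 11.3 to 11.6 at 24 h, from 10.50 to 10.69 at 48 h and from 11.4 to 11.5 at 72 h. Within the adipocyte list Lpl rose by 0.85 at 24 h and 0.91 at 72 h. Fabp4 went the other way, by -0.75, -1.04 and -1.06 at 24, 48 and 72 h. The muscle sum ran from 11.4 to 12.0 in controls and from 9.78 to 10.1 at 72 h, where Tnnt2 fell by 2.28 and the other tested muscle genes were not called (median of the 3 tested, 0.07). All these sums keep the shifts of dye and slide. Controls lay on both slides, and the 24, 48 and 72 h samples on slide 2 alone. The part of the markers in the results below was not tested. In these bulk samples, fewer cells of a type and less RNA per cell cannot be told apart.

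The members differed from the control in both directions and at different times. Klf4 and Klf9 were higher than in the control at each of the 4 times, and Klf7 at 3 of them. Klf2 was higher at 24 and 48 h and back near the control at 72 h. Klf10 fell at 24 h and again between 48 and 72 h, to 0.332 of its control level. Klf5 and Klf6 were lower at 24 and 72 h, the times whose samples shared no array with a control. Klf3 and Klf13 passed the threshold (adjusted p under 0.05) in no comparison of 2 groups, and Klf15 was too dim to test.

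At 6 h 3 of the 9 tested members rose and 0 fell, where 24.8% of all genes tested were called, 13.6% higher and 11.1% lower. At 24 h 3 rose and 3 fell, where 40.2% of all genes were called, 21.1% higher and 19.1% lower. At 48 h 4 rose and 1 fell (41.7% of all genes, 21.5% higher and 20.3% lower). At 72 h 3 rose and 3 fell (47.7%, 25.1% higher and 22.6% lower). A test for any difference among the 5 groups called 8 of the 9, against 59.4% of all genes. With only 9 members tested, a few calls move such a share widely, so none of these counts is read as setting the members apart. The median size of change among members was 0.095, 0.38, 0.23 and 0.27 on the log2 scale at 6, 24, 48 and 72 h, and 0.094, 0.16, 0.14 and 0.19 among all genes tested. The 4 comparisons use the same control samples, so they are not independent of each other.

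**Figure D1:**
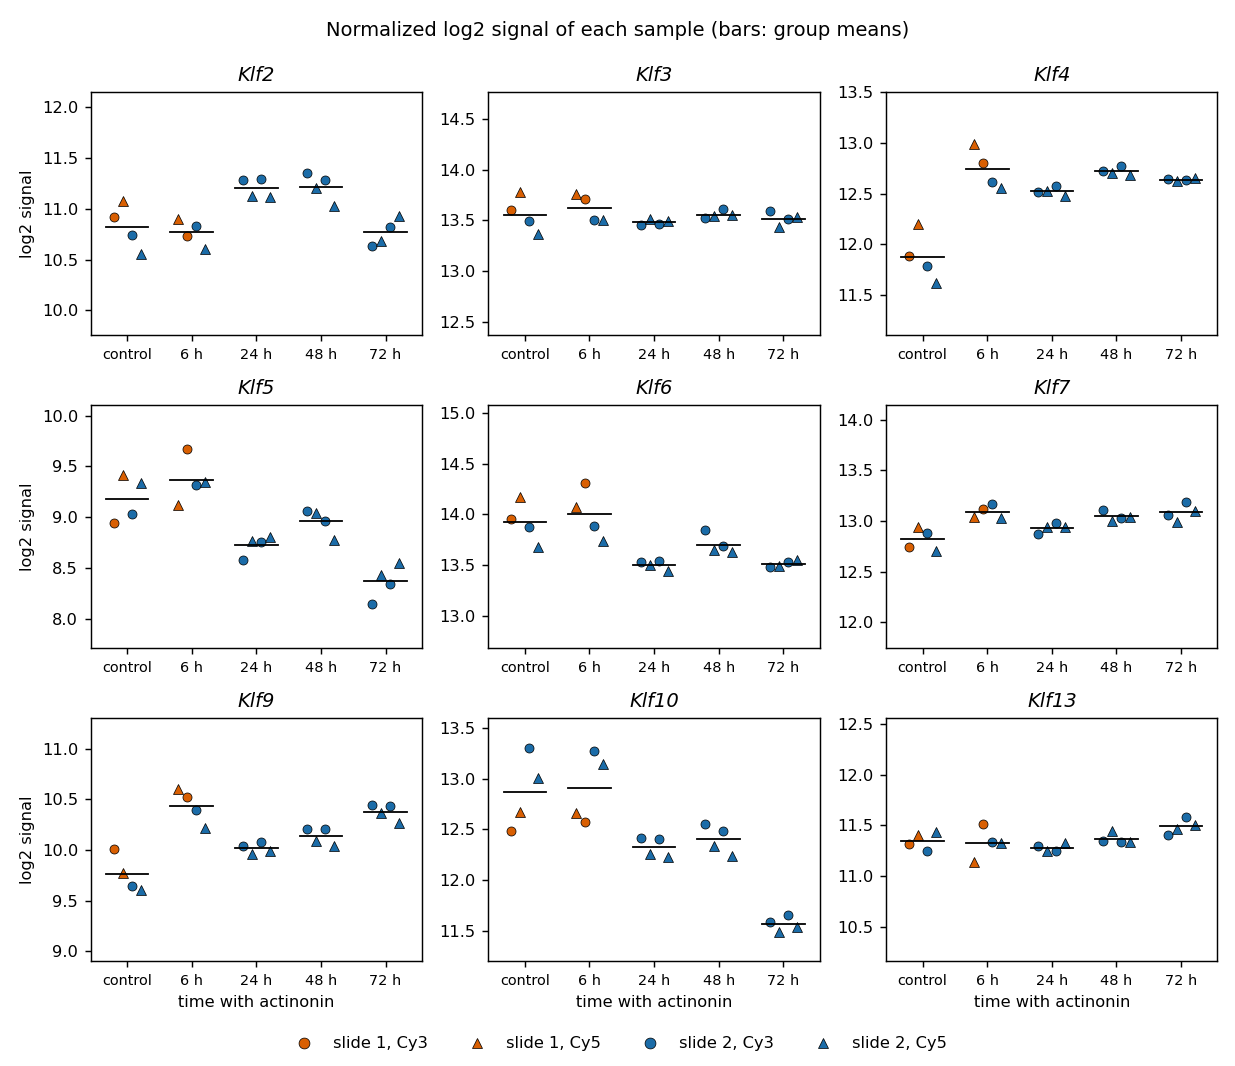
Normalized log2 signal (y axis) of each of the 20 samples for the 9 tested members, by group (x axis); colour marks the slide, shape the dye, and bars are group means. Every panel spans the same range of log2 units. The 4 Klf10 values at 72 h (11.5 to 11.7) lie below all others, and the 4 Klf4 control values (11.6 to 12.2) lie below all treated samples.

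Among the activator group, Klf4, one of the factors that reprogram somatic cells to pluripotency and in fibroblasts a gene of growth arrest, rose at every time. Its normalized log2 signal in the control samples was 11.89 and 12.20 on slide 1 and 11.79 and 11.62 on slide 2. At 6 h it was 12.80 and 12.99 on slide 1 and 12.62 and 12.56 on slide 2. At 24 h the 4 samples lay between 12.48 and 12.57, at 48 h between 12.68 and 12.77 and at 72 h between 12.63 and 12.65. No treated sample overlapped the controls. The log2 change was 0.86 ± 0.06 (SE, n = 4 per group; limma, adjusted p = 1.87e-08) at 6 h, a 1.81-fold rise. It was 0.81 ± 0.07 (adjusted p = 1.19e-07) at 24 h, 1.00 ± 0.07 (adjusted p = 1.20e-09) at 48 h and 0.92 ± 0.07 (adjusted p = 1.21e-08) at 72 h, folds of 1.75, 2.00 and 1.89. No step between successive times was called: 24 h was 0.05 below 6 h (95% confidence interval -0.21 to 0.10), 48 h was 0.20 above 24 h (0.05 to 0.34; adjusted p = 0.0673) and 72 h was 0.08 below 48 h (-0.22 to 0.06). The 6 h change was 0.85 within slide 1 and 0.87 within slide 2. Klf4 was thus raised at the first time sampled.

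Klf2, a factor best known for quiescence of endothelial cells and T cells, rose later and not lastingly. The control samples measured 10.92 and 11.08 on slide 1 and 10.75 and 10.55 on slide 2, and the 6 h samples 10.90, 10.73, 10.83 and 10.61. At 24 h the values were 11.28, 11.12, 11.30 and 11.12, at 48 h 11.36, 11.20, 11.28 and 11.03, and at 72 h 10.64, 10.68, 10.82 and 10.93. The 24 h samples all lay above the controls, while the lowest 48 h sample overlapped them until dye and slide were removed. Klf2 changed by -0.08 ± 0.08 at 6 h (adjusted p = 0.582). It rose by 0.48 ± 0.10 at 24 h (adjusted p = 0.000798) and by 0.50 ± 0.09 at 48 h (adjusted p = 0.000174), which is 1.40-fold and 1.41-fold. At 72 h the difference was 0.05 ± 0.10 (adjusted p = 0.742; 95% interval -0.16 to 0.26). The step from 6 to 24 h was 0.56 ± 0.10 (adjusted p = 0.000292). The step from 48 to 72 h fell by 0.45 ± 0.09 (adjusted p = 0.00161), with no overlap between the 2 groups. Klf2 and Klf4 are both textbook targets of the kinase ERK5 acting through MEF2 factors, and their time courses are set side by side here without a test of the difference.

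Klf5, which promotes proliferation and opposes Klf4 at several epithelial genes, fell. Its control samples measured 8.94, 9.42, 9.04 and 9.34 and the 6 h samples 9.12, 9.67, 9.32 and 9.34. They were 8.58, 8.76, 8.75 and 8.80 at 24 h, 9.06, 9.04, 8.96 and 8.78 at 48 h and 8.15, 8.43, 8.34 and 8.55 at 72 h. All 24 h and 72 h samples lay below all controls, and the 48 h samples overlapped them. Klf5 fell by 0.45 ± 0.12 at 24 h (adjusted p = 0.00647) and by 0.81 ± 0.12 at 72 h (adjusted p = 2.42e-05; 0.572-fold). The values at 6 h (0.18 ± 0.10, adjusted p = 0.240) and at 48 h (-0.21 ± 0.11, adjusted p = 0.130) did not pass. The step from 6 to 24 h fell by 0.62 ± 0.12 (adjusted p = 0.000632), and that from 48 to 72 h by 0.59 ± 0.11 (adjusted p = 0.000846). The difference of 0.24 ± 0.11 between 48 and 24 h was not called (adjusted p = 0.186). The 48 h value passed under 3 of 34 alternatives: it was -0.24 on slide 2 alone (adjusted p = 0.0317), -0.22 with no slide term (adjusted p = 0.0414) and -0.28 without the 6 h sample 2_Cy3 (adjusted p = 0.0196).

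Klf6, an early-response gene and growth suppressor, changed less. Its samples lay between 13.68 and 14.17 in the control, 13.74 and 14.31 at 6 h, 13.45 and 13.54 at 24 h, 13.63 and 13.84 at 48 h and 13.48 and 13.55 at 72 h. The 24 h and 72 h samples lay below all controls as normalized, though those of 72 h overlapped them once dye and slide were removed. Klf6 fell by 0.24 ± 0.07 at 24 h (adjusted p = 0.00866) and by 0.23 ± 0.07 at 72 h (adjusted p = 0.00931), with -0.05 ± 0.06 at 48 h (adjusted p = 0.611). Without the control sample 2_Cy3 these were -0.18 (adjusted p = 0.0780) and -0.17 (adjusted p = 0.0846), and neither was called. The step from 6 to 24 h fell by 0.34 ± 0.07 (adjusted p = 0.000923) and stayed called under all 34 alternatives tried.

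Klf7, a widely expressed activator studied most in neurons and fat cells, rose slightly. Its samples lay between 12.71 and 12.94 in the control, 13.03 and 13.17 at 6 h, 12.87 and 12.98 at 24 h, 13.00 and 13.11 at 48 h and 12.99 and 13.18 at 72 h. The 6, 48 and 72 h samples lay above every control. The rise was 0.27 ± 0.05 at 6 h (adjusted p = 0.000766), 0.23 ± 0.06 at 48 h (adjusted p = 0.00224) and 0.27 ± 0.06 at 72 h (adjusted p = 0.00146), each about 1.2-fold. The 24 h value was 0.12 ± 0.06 (adjusted p = 0.138), and without the control sample 1_Cy5 it was 0.15 (adjusted p = 0.0296). No step between times was called.

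**Figure D2:**
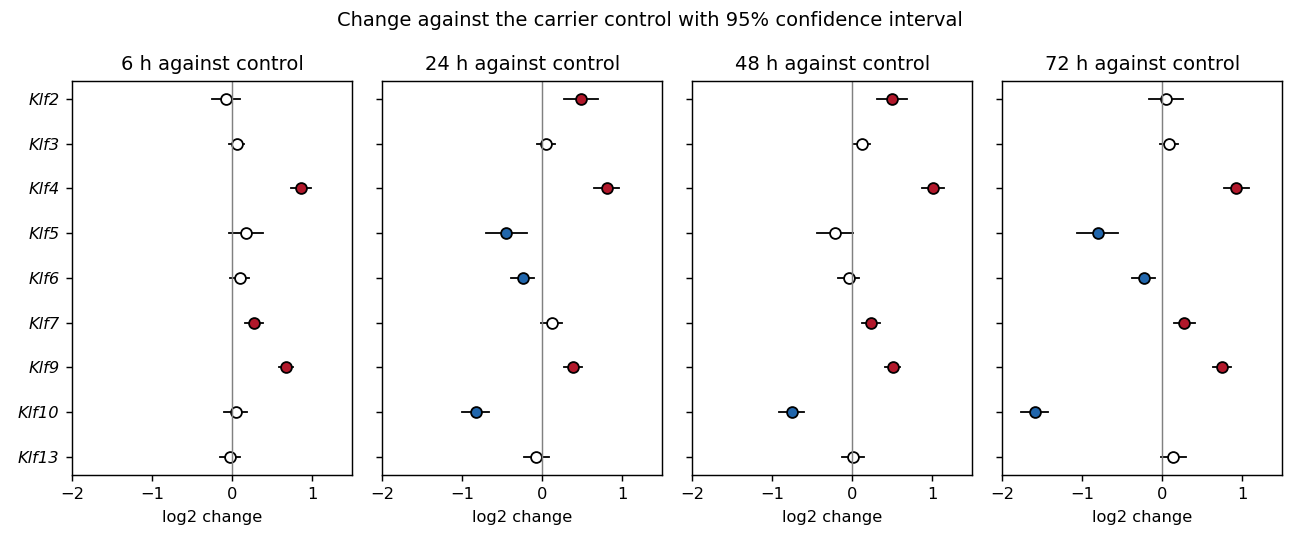
Log2 change against the carrier control (x axis) at 6, 24, 48 and 72 h for the 9 tested members (y axis), from limma with dye and slide as terms; bars are 95% confidence intervals, red and blue points passed an adjusted p under 0.05 (higher and lower) and open points did not. Klf4 and Klf9 lie to the right of 0 at all 4 times, and Klf10 reaches -1.59 at 72 h.

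Among the Sin3-binding group, Klf10, named at its discovery as a gene induced early by TGF-beta, gave the largest change among the 9 members. The control samples measured 12.48 and 12.67 on slide 1 and 13.31 and 13.00 on slide 2. The 6 h samples measured 12.66 and 12.57 on slide 1 and 13.27 and 13.14 on slide 2. The later samples, all on slide 2, measured 12.41, 12.26, 12.41 and 12.23 at 24 h and 12.55, 12.33, 12.48 and 12.23 at 48 h. At 72 h they were 11.59, 11.49, 11.65 and 11.54. The slides differed by 0.59 for this probe, so the late samples are best read against the slide 2 controls, which they all lay below. At 6 h Klf10 did not pass the test (0.04 ± 0.07, adjusted p = 0.724; 95% interval -0.10 to 0.18). It fell by 0.83 ± 0.08 at 24 h (adjusted p = 2.28e-07), by 0.76 ± 0.07 at 48 h (adjusted p = 1.15e-07) and by 1.59 ± 0.08 at 72 h (adjusted p = 3.07e-11). As folds these are 0.562, 0.591 and 0.332 of the control. On slide 2 alone the values were -0.83, -0.76 and -1.59, and with no slide term they were -0.60, -0.65 and -1.36.

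The loss of Klf10 came in 2 steps. From 6 to 24 h it fell by 0.87 ± 0.08 (adjusted p = 2.18e-07), and from 48 to 72 h by 0.83 ± 0.07 (adjusted p = 1.14e-06). Between them, 48 h differed from 24 h by 0.07 ± 0.07 (adjusted p = 0.570). A set of 4 arrays carried a 72 h and a 24 h sample side by side, so that their difference holds no variation between arrays. On these 4 arrays the 72 h channel was lower for Klf10 by 0.92 and 0.87 where it carried Cy5, and by 0.67 and 0.58 where it carried Cy3. The dye shift is not removed from such differences, so the SDs that follow include it. Klf2 was lower at 72 h than at 24 h on all 4, with a mean difference of -0.44 (SD 0.13), and so was Klf5 (-0.36, SD 0.22). Klf9 (0.36, SD 0.13) and Klf4 (0.11, SD 0.03) were higher on all 4, as were Klf13 (0.21, SD 0.05) and Klf7 (0.15, SD 0.06), and Klf6 was higher on 2 and lower on 2.

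**Figure D3:**
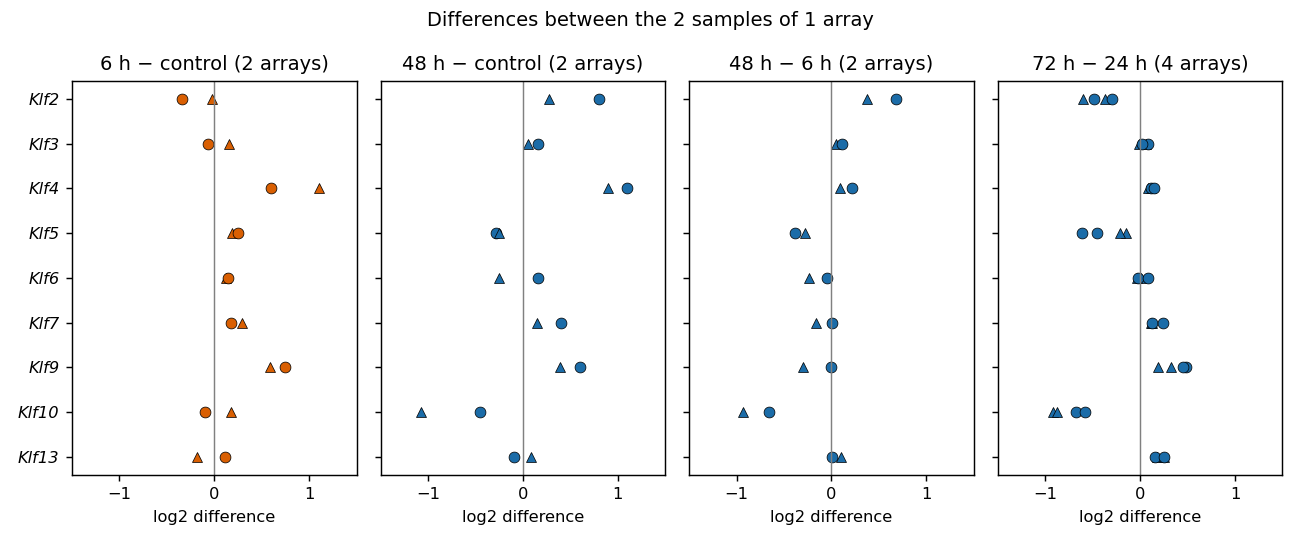
Log2 difference between the 2 samples that shared an array (x axis) for the 9 tested members (y axis), in 4 kinds of pair; each point is 1 array, coloured by slide (orange 1, blue 2), with a circle where the later sample carried Cy3 and a triangle where it carried Cy5. On the 4 arrays of 72 h against 24 h, Klf10, Klf2 and Klf5 lie left of 0 and Klf9, Klf13, Klf7 and Klf4 right of it.

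Klf9, a gene induced by glucocorticoid and thyroid hormone whose product mostly represses, rose at every time with a dip at 24 h. The control samples measured 10.01 and 9.77 on slide 1 and 9.65 and 9.61 on slide 2, and the 6 h samples 10.60 and 10.52 on slide 1 and 10.40 and 10.22 on slide 2. They were 10.04, 9.96, 10.07 and 9.99 at 24 h, 10.21, 10.09, 10.21 and 10.04 at 48 h and 10.44, 10.36, 10.44 and 10.26 at 72 h. The 6, 48 and 72 h samples lay above every control, and those of 24 h overlapped the slide 1 control in Cy3 until dye and slide were removed. Klf9 rose by 0.67 ± 0.04 at 6 h (adjusted p = 4.65e-09) and by 0.38 ± 0.05 at 24 h (adjusted p = 1.07e-05). The rise was 0.51 ± 0.05 at 48 h (adjusted p = 7.28e-08) and 0.75 ± 0.05 at 72 h (adjusted p = 1.70e-09), 1.68-fold. The order of the groups was control, 24 h, 48 h, 6 h and 72 h. The fall from 6 to 24 h (-0.29 ± 0.05, adjusted p = 0.000315) and the rise from 48 to 72 h (0.24 ± 0.05, adjusted p = 0.00125) were called. The difference of 0.12 ± 0.05 between 48 and 24 h (95% interval 0.02 to 0.22) missed the adjusted threshold (adjusted p = 0.104), though the 2 groups did not overlap once dye and slide were removed, and it was called on slide 2 alone (adjusted p = 0.0460). The call from 6 to 24 h was lost without scaling between arrays (adjusted p = 0.0538), and that from 48 to 72 h without it (adjusted p = 0.0631) or without the slide term (adjusted p = 0.119).

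Over successive times, 1 member rose and 4 fell from 6 to 24 h, where 32.8% of all genes were called, 16.4% higher and 16.3% lower. From 24 to 48 h only Klf6 was called, by 0.20 ± 0.06 (adjusted p = 0.0476; 12.0% of all genes, 5.72% higher and 6.33% lower), and it lost the call under 21 of 34 alternatives, 15 of which left out 1 sample. From 48 to 72 h 1 rose and 4 fell (23.1% of all genes, 12.8% higher and 10.3% lower). Klf5, Klf6 and Klf10 fell at both the first and the last of these steps, the last Klf6 call (-0.19 ± 0.06, adjusted p = 0.0379) being lost under 9 of 34 alternatives, 6 of which left out 1 sample. For Klf2, Klf5, Klf9 and Klf10 the steps before and after were called and that from 24 to 48 h was not, with 95% intervals of -0.18 to 0.20 for Klf2, 0.0034 to 0.47 for Klf5, 0.02 to 0.22 for Klf9 and -0.08 to 0.23 for Klf10.

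Klf13, a Sin3-binding repressor also known from T cells and heart, was called in no pairwise comparison. Its changes ran from -0.07 ± 0.07 at 24 h (95% interval -0.23 to 0.08) to 0.14 ± 0.07 at 72 h (adjusted p = 0.133; -0.02 to 0.29), and the test over all 5 groups gave an adjusted p of 0.0455. Klf3, a CtBP-recruiting repressor of fat and blood cells, changed by 0.05, 0.05, 0.12 and 0.08 at the 4 times. Its 48 h value (0.12 ± 0.05, adjusted p = 0.0516; 95% interval 0.02 to 0.22) was past the threshold under 9 of 34 alternatives. These intervals bound the changes of both genes against the control to at most 0.29 on the log2 scale.

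Klf15, a regulator of amino acid and glucose use in liver and muscle and a glucocorticoid target, was well above background in 3 of 20 samples: the 48 h sample 1_Cy3 and the 72 h samples 1_Cy5 and 2_Cy3. Its normalized signal there was 6.70 in each. In the control and at 6 h and 24 h it was not well above background in any sample, with values between 5.88 and 6.65. These signals lie at the limit of measurement, so no change or fold is given.

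The other Krueppel-like factors and the related Sp factors bind the same kinds of DNA. Of 7 further family members, Klf1 and Klf14 did not pass the filter on dim probes. Of the 5 tested, 1, 3, 2 and 3 rose at 6, 24, 48 and 72 h and 0 fell. Of all genes tested, 13.6%, 21.1%, 21.5% and 25.1% rose at these times and 11.1%, 19.1%, 20.3% and 22.6% fell. These shares also stand beside the counts of the lists below. Klf11, a Sin3-binding factor that TGF-beta also induces, rose by 0.25 ± 0.09, 0.35 ± 0.08 and 0.46 ± 0.09 at 24, 48 and 72 h (adjusted p = 0.0408, 0.00216 and 0.000487). This is the opposite direction to Klf10. Among the CtBP-recruiting factors, Klf8 rose by 0.41, 0.45 and 0.46 at those times and Klf12 by 0.27, 0.26 and 0.34 at 6, 24 and 72 h. The Klf8 probe was well above background in only 15 of the 20 samples, and that of Klf12 in all 20. Klf16 and Klf17 were called at none. The median change of these 5 was 0.14, 0.25, 0.16 and 0.34, with a median over all genes tested within 0.01 of 0. Of 9 Sp factors 7 were tested. Sp7, the osteoblast factor also called osterix, fell by 0.37, 0.53 and 0.62 at 24, 48 and 72 h, and Sp4 rose by 0.28 and 0.45 at 48 and 72 h. Sp1 fell by 0.15 and 0.13 at 24 and 48 h, and Sp6 by 0.26 at 48 h.

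**Figure D4:**
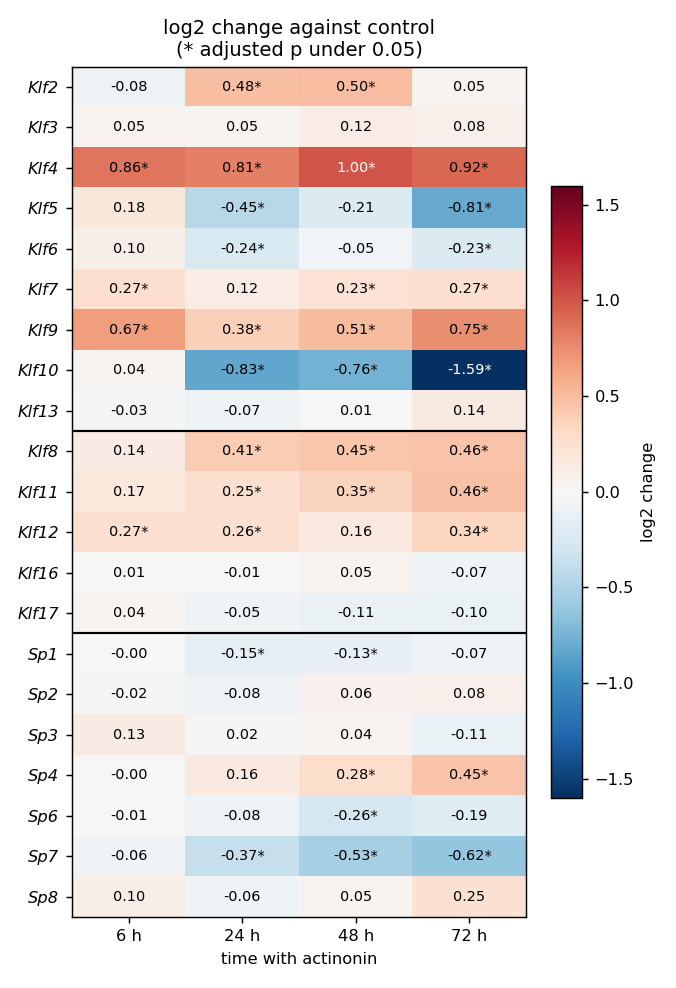
Log2 change against the carrier control (colour and printed value) for the 9 tested members, the 5 other tested Krueppel-like factors and the 7 tested Sp factors (rows) at 6, 24, 48 and 72 h (columns); an asterisk marks an adjusted p under 0.05. Klf8 and Klf11 are red from 24 h on, beside a blue Klf10 reaching -1.59.

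Of the pathway that acts upstream of Klf2 and Klf4, the MEK5-ERK5-MEF2 cascade, all 7 genes were tested and 2, 2, 2 and 3 rose at the 4 times, with 1, 0, 0 and 1 lower. Map2k5, which encodes MEK5, rose by 0.14 at 6 h and 0.41 at 72 h (adjusted p = 7.86e-07), and Mapk7, which encodes ERK5, by 0.15, 0.20 and 0.19 at 24, 48 and 72 h. Mef2d, a MEF2 factor, rose by 0.23 at 6 h and fell by 0.42 at 72 h. The median of the 7 was 0.04, 0.05, 0.03 and 0.13.

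Among the 12 genes of the glucocorticoid receptor and its common targets, a list to which Klf9 and Klf15 are related, 5, 4, 4 and 4 rose and 3, 5, 4 and 5 fell. Tsc22d3, a glucocorticoid-induced anti-inflammatory gene, rose by 1.01 at 6 h, 0.87 at 48 h and 0.71 at 72 h. At 24 h it lay 0.40 below its 6 h level. Of the metallothioneins, Mt1 rose by 0.33, 1.21, 0.78 and 0.87 at the 4 times, and Mt2 by 0.71 at 6 h and 0.93 at 24 h. Fkbp5, a receptor co-chaperone, fell by 0.45, 0.37 and 0.59 at 24, 48 and 72 h, and Sgk1, a kinase of ion transport, by 1.15 at 72 h. The list therefore held genes moving in both directions, with a median between -0.12 and 0.00 at the 4 times.

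Of 16 corepressors, coactivators and ubiquitin ligases of the family, 1, 2, 1 and 2 rose and 2, 5, 5 and 5 fell. Hdac1, a histone deacetylase of the Sin3 complex, was lower at each time, by 0.13, 0.20, 0.28 and 0.21. Smurf2, a ubiquitin ligase of TGF-beta signalling, fell by 0.43 at 72 h, and Wwp1, a ligase that targets several Krueppel-like factors, rose by 0.36. Of 20 genes described as targets of the family, 6, 3, 3 and 4 rose and 1, 5, 8 and 8 fell, with medians of 0.08, -0.11, -0.14 and -0.15. S1pr1, a Klf2 target in T cells, fell by 0.35, 0.92, 0.96 and 1.22 over the 4 times, including 24 and 48 h when Klf2 was higher. Smad7, the inhibitor of TGF-beta signalling that Klf10 is described to repress and whose own expression TGF-beta induces, fell by 0.41, 0.37 and 0.63 at 24, 48 and 72 h, when Klf10 was also lower. The relation of S1pr1 to Klf2, and of Smad7 to Klf10 or TGF-beta, was not tested. Cebpb, an early factor of fat cell formation, rose by 0.85 at 6 h and 0.58 at 72 h. Pparg, the later factor, rose by 0.40 at 6 h and fell by 0.39 at 72 h. Thbd, an endothelial target of Klf2 and Klf4, fell by 0.74 at 48 h.

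The genes whose pattern over the 20 samples was most like a member were found for the 3 members with the smallest p over all groups, among 3617 named genes whose group means spanned at least 0.5. The likeness is Pearson's r after removal of dye and slide, and the samples share arrays and groups. For Klf10 these were Nup35 (r = 0.992), a nuclear pore gene that fell by 0.42, 0.45 and 0.82 at 24, 48 and 72 h, then Ldlrad4 (0.987) and Hat1 (0.987). For Klf9 they were Artn (0.978), Ch25h (0.960) and Lonrf1 (0.953). Ch25h, the cholesterol 25-hydroxylase, rose by 0.85 at 6 h, 0.49 at 24 h and 1.13 at 72 h. For Klf4 they were C9orf72 (0.984), Crls1 (0.979) and Dennd4a (0.977). Crls1, the mitochondrial cardiolipin synthase, rose by 0.66, 0.65, 0.70 and 0.65 at the 4 times, and Dennd4a by 1.08, 1.09, 1.22 and 1.25.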

How the data were processed

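Each array held 2 samples, 1 per dye, and each file gave both channels. Feature Extraction, Agilent's reading software, differed in version between slide 1 (10.7.3.1) and slide 2 (11.0.1.1), per the file headers, and these cannot be told apart. As deposited, intensity is the median brightness of a spot and of its surroundings, with no normalization. The authors' deposited matrix holds log2 values per spot with column medians of 6.90 to 6.91, each correlated with its own channel at 0.9986 or above, and served as an alternative. Per the submitters' processing notes R 2.15 and limma were used; which steps they ran is not given in the sources used here.

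Here background was corrected by limma's normexp (offset 50), followed by loess within each array and scaling between arrays by Aquantile (R 4.3.3, limma 3.58.1). Such steps remove any shift shared by all genes. Of 62976 spots 3671 were controls. Of 28116 probes with a RefSeq accession 26582 were named through RefSeq genes of GRCm38.p6, while the array's annotation is on mm9. Probes were kept where 4 or more of the 20 samples were well above background, and the brightest stood for its gene, giving 24284 tested. Each was fitted with group, dye and slide, with arrays as random blocks (correlation 0.25), two-sided, with Benjamini-Hochberg adjustment and called under 0.05. Slide was called for 10471 genes and dye for 6395. Whether the 4 samples came from separate cultures is not detailed beyond their being independent, so the p-values speak of the spread among these samples, whose number limits the precision. The fit was tested on data simulated from the fitted model itself, which cannot show faults of the design or of the normalization.

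The members, the 6 gene lists, the markers and the tests were chosen with earlier results of these data known. Named are all members and other family genes, up to 3 genes per list, direction and comparison by smallest adjusted p among those called, and for 3 members the 3 most alike genes. Alternatives covered background correction, normalization, filter, probe choice, blocks, slides and each sample left out.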

Additional observations from a re-analysis of the deposited data

Results flagged for a closer look

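Among 45 sets of 4 values (9 members in 5 groups, dye and slide removed), 3 had a sample standing apart from the others, where chance alone flags about 1 in 20 such sets. For Klf7 at 24 h, sample 1_Cy3 measured 12.8591 and the others lay between 12.9661 and 12.9689. For Klf9 at 48 h, sample 2_Cy5 measured 10.2248, with the nearest at 10.2764 and the farthest at 10.2852. For Klf13 at 48 h, sample 1_Cy5 measured 11.442, with the nearest at 11.3489 and the farthest at 11.3361. Each lies within 0.12 of its group's other values on the log2 scale.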

How the results depend on the processing

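Of 2151 recomputed member changes, 2083 kept their side of the threshold, 43 lost a call, 25 gained one and 0 called changes reversed. Counts of members called at 24, 48 and 72 h against control, from 6 to 24 h and over all 5 groups stayed within 1.5 times the main count. On slide 1 alone (1 residual degree of freedom) 0 members were called at 6 h, with 21 genes called in all. From 24 to 48 h the count of 1 became 0 with a normexp offset of 16, without scaling between arrays, without the filter, without the slide term, without the array of highest share above background and with the replicate block. It became 2 without the array block or with only the groups compared and 3 on slide 2 alone, and lay between 0 and 2 with each sample left out. From 48 to 72 h the count of 5 became 3 without scaling between arrays and without the slide term. The cause was not tested. Klf7 at 6 h was not called with only the groups compared (0.27, adjusted p = 0.0522), and Klf6 at 24 h and 72 h not without scaling between arrays (-0.21 and -0.20) or without the array of highest share above background (-0.19 and -0.17).

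The replicate block called 3, 6, 5 and 6 members at the 4 times against control. Samples with the same number and dye in different groups did not deviate together (correlations from -0.558 to 0.171). This check covers samples of the same dye only, so it cannot show whether a number pairs samples of different dyes across groups. The main fit did not pair samples by number. Whether the same number in Cy3 and Cy5 of a group marks the same culture was not tested.

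Over all genes, calls fell from 9757 to 6111 at 24 h, from 7955 to 4434 for 24 against 6 h, from 2926 to 331 for 48 against 24 h and from 5606 to 1787 for 72 against 48 h without scaling between arrays. Without the slide term the last 3 were 5303, 877 and 2728. With only the groups compared, calls at 6 h fell from 6016 to 2748, and without the 24 h sample 2_Cy5 those for 48 against 24 h to 1772. With 1 sample left out, Klf3 at 48 h was called without control 2_Cy3 or 1_Cy5 or 6 h 2_Cy3 (0.13 to 0.16), and Klf13 at 72 h without 6 h 1_Cy5 (0.18, adjusted p = 0.0183). From 24 to 48 h Klf4 was called without control 1_Cy3 or 1_Cy5 or 6 h 2_Cy3 or 1_Cy5 (0.20), and from 6 to 24 h Klf7 without control 1_Cy5 or 2_Cy5 (-0.18 and -0.17). Klf6 from 48 to 72 h was lost without 48 h or 72 h 1_Cy3, 2_Cy3 or 1_Cy5. Klf6 from 24 to 48 h was lost without any 1 of the 24 h, 48 h or 72 h samples, control 2_Cy5, 6 h 1_Cy3 or 6 h 2_Cy5.

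Klf15 lies at the limit of signal over background.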
